A study of Homo sapiens with 8 samples.

Results

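OAW42-R is a cisplatin-resistant line obtained from OAW42, a serous ovarian cancer line, by repeated exposure to the drug. The arrays described here are those of the cells that received the nontargeting control siRNA (sictrl), 4 of the 8 arrays of the experiment, chosen by their titles and not by any measured value. The cells were grown with serum and insulin, transfected with 20 nM of a pool of nontargeting siRNAs with the reagent INTERFERin, and their RNA was taken from independent experiments named A1, M2, A2 and A3. The labels place RNA extraction 24 h after transfection and the study's methods give a later time, so the time is uncertain. The other arrays of the experiment hold cells whose long noncoding RNA UCA1 was knocked down, and they enter none of the values below. No array here holds untransfected cells or the sensitive parental line, so what follows describes 1 resistant line after a control transfection and shows nothing about what resistance changed.

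Serous ovarian carcinomas resemble the epithelium of the fallopian tube, a derivative of the Mullerian duct, and are commonly recognised by the transcription factors PAX8 and WT1, by keratins and by the antigens MUC16 (CA-125) and WFDC2 (HE4). Cisplatin enters cells, binds glutathione and other thiols, and crosslinks DNA, and the crosslinks are removed by nucleotide excision repair and by the Fanconi pathway or bypassed by translesion polymerases. Which of these components a resistant line transcribes is therefore a natural question for a baseline profile.

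RNA was labelled in a single color and hybridised to Agilent 8x60k arrays. A probe counts as well above background when the scanner software says so for most of its spots, and a gene as detected when 1 probe passed on all 4 arrays. The level of a gene is the log2 processed signal of its brightest detected probe minus the log2 of the array's 75th percentile over non-control spots, so that a level of 0 equals that percentile and each step of 1 doubles the signal. Values are means ± SD over the 4 arrays unless single arrays are given. Probes differ in how well they bind and label, so an order of levels between genes is an order of spot brightness and not of transcript number. Among the 2879 genes with several detected probes, the brightest and dimmest differed by a median of 2.01, and the difference exceeded 2 in 50.3% of them. A gene not well above background has only an upper bound on these arrays.

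Probes with a RefSeq symbol represented 22439 genes, of which 11817 (52.7%) were detected on all 4 arrays, 1845 on some of them and 8777 (39.1%) on none. Protein-coding genes were detected in 59.4% of cases and missed on every array in 32.8%. Annotated long noncoding RNAs were detected in 18.3% of 3246, and catalogue transcripts without a RefSeq symbol whose names begin with lnc in 8.17% of 10175. These shares are the background against which the groups below are read. Between 0 and 5 of the 308 negative control spots of an array passed the same criterion.

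Array A3 stood apart from the others. The surface trend that the scanner software fitted and removed had a root mean square of 0.321 on A3 and between 0.079 and 0.0925 on A1, M2 and A2. Over detected genes A3 correlated with the other arrays at r between 0.983 and 0.986, whereas the others correlated among themselves at 0.995 to 0.997 (across genes, which are not independent replicates). It was the array farthest from the mean of the rest for 53.9% of detected genes. Leaving it out moved the means of the 189 detected genes named here by between -0.39 and 1.01, and many of the levels that moved are also given without it. Without A3 the number of RefSeq genes detected on every array was 12149, and the median SD over all detected genes was 0.115 in place of 0.187.

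The brightest signals belonged to the machinery of protein synthesis. Of the 100 brightest genes with a symbol, 54 encode proteins of the cytosolic ribosome, led by RPS21 at 11.03 ± 0.18 and RPS27 at 11.00 ± 0.13. Counted over whole families, 80 of 82 ribosomal protein genes with a probe were detected, with a median level of 9.86 against 1.99 for all detected RefSeq genes. The brightest symbol of all was SNAR-A3, a small NF90-associated RNA of a multicopy family (11.29 ± 0.18), with SNAR-B2 of the same family at 10.80 ± 0.27. Signals of these copies, of the 28S ribosomal RNA RNA28SN5 (10.82 ± 0.19) and of ribosomal protein genes with many processed pseudogenes may be shared between near-identical sequences and are uncertain for single loci. The 100 brightest of all detected genes and transcripts, 28 of them without a symbol, together held 25.6% of the summed signal of detected genes on average, between 24.9% and 26.3% on single arrays.

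**Figure D1:**
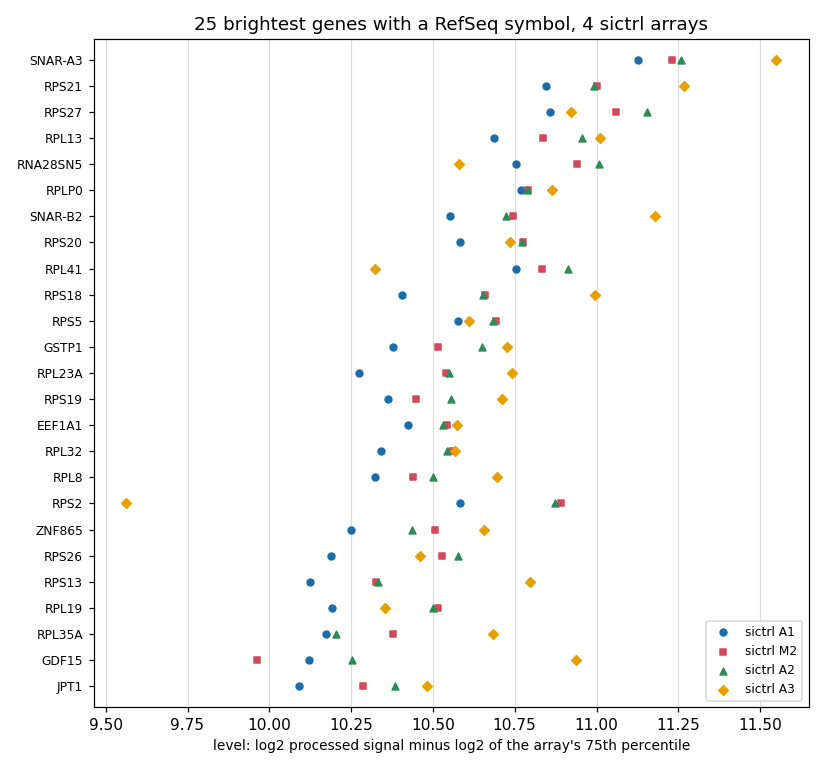
The 25 brightest genes with a RefSeq symbol, with a line per gene and a point per sictrl array, on the log2 scale relative to the array's 75th percentile. Ribosomal protein genes fill most lines, GSTP1 and GDF15 stand among them, and the points of A3 lie farthest from the rest for RPS2 and GDF15.

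Outside the ribosome, the brightest coding gene was GSTP1, the glutathione S-transferase that conjugates electrophiles with glutathione. Its level was 10.38 on A1, 10.52 on M2, 10.65 on A2 and 10.73 on A3. All arrays lay within 0.35 of each other, and only 16 of the 15153 detected genes and transcripts were brighter. EEF1A1, the elongation factor that brings aminoacyl-tRNA to the ribosome, followed at 10.52 ± 0.065. GDF15, a secreted stress cytokine of the TGF-beta superfamily, was at 10.12 on A1, 9.96 on M2, 10.25 on A2 and 10.94 on A3. A3 was the highest array for GDF15, and the mean without it was 10.11 ± 0.15. JPT1, a microtubule-associated protein, was at 10.31 ± 0.17, and a probe for the zinc finger gene ZNF865 at 10.46 ± 0.17, whereas the other detected probe of ZNF865 was dimmer by 10.79 and the remaining probe was not well above background on any array. The reference genes commonly used for normalization in PCR were all detected (16 of 16), from TBP at 1.49 ± 0.071 to RPLP0 at 10.80 ± 0.042. The spread of RPLP0 was small, whereas ACTB, at 10.29 on A1, 10.41 on M2, 10.53 on A2 and 9.31 on A3, was clearly lower on A3.

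Several keratins and junction proteins of epithelia were detected. KRT19, a keratin of simple epithelia, reached 9.54 on A1, 9.41 on M2, 9.43 on A2 and 10.35 on A3, again highest on A3. The keratins KRT18 (7.59 ± 0.084), KRT8 (3.81 ± 0.55) and KRT7 (3.33 ± 0.44) were detected too, as were the adhesion molecule EPCAM (6.96 ± 0.11), the tight junction protein CLDN3 (7.25 ± 0.24) and E-cadherin, CDH1 (3.37 ± 0.21). In all, 13 of 20 epithelial markers were detected (65.0%), against 59.4% of all coding genes. Of the 10 regulators of the epithelial programme in that list, 5 were detected on all 4 arrays, 1 on some of them and 4 on none. ESRP1, a splicing regulator, GRHL2, a transcription factor that activates CDH1, OVOL1 and RAB25 were not well above background on any array, whereas ESRP2, the paralogue of ESRP1, was at 3.07 ± 0.088. CLDN4 was dim at -2.08 ± 0.33 (-2.24 ± 0.054 without A3).

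Mesenchymal genes stood beside the epithelial ones. VIM, the intermediate filament vimentin, was at 8.77 on A1, 9.04 on M2, 9.09 on A2 and 9.07 on A3 and S100A4 at 9.02 on A1, 9.13 on M2, 9.25 on A2 and 9.49 on A3, and the arrays lay within 0.31 and 0.47 of each other. The transcription factors ZEB1 (1.74 ± 0.078), SNAI1 (1.46 ± 0.44) and TWIST2 (2.25 ± 0.19) were detected, whereas ZEB2, SNAI2 and PRRX1 were not well above background on any array. N-cadherin, CDH2, was at -0.50 ± 0.79, with A3 at 0.66 and the other arrays between -1.03 and -0.69. Fibronectin, FN1, passed on 1 array, and SPARC on none. Over the whole list, 7 of 12 genes were detected (58.3%), against 59.4% of all coding genes.

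Markers of the Mullerian lineage were split. PAX8, the paired box factor of Mullerian epithelia, had levels of 5.14 on A1, 5.21 on M2, 5.15 on A2 and 5.80 on A3. SOX17, its partner in serous carcinoma, was at 6.46 on A1, 6.62 on M2, 6.57 on A2 and 6.76 on A3, and MECOM, a zinc finger oncoprotein often amplified in ovarian cancer, at 4.39 ± 0.058. All 3 transcription factors were therefore well above background on each array, with A3 highest for PAX8. WT1, the other factor that pathologists use for serous tumours, was not well above background on any array, nor were the hormone receptors ESR1 and PGR. The antigens showed the same split. FOLR1, the folate receptor targeted by mirvetuximab, was at 7.20 on A1, 7.27 on M2, 7.67 on A2 and 8.20 on A3, CD24 at 7.84 ± 0.12, the osteopontin gene SPP1 at 5.99 ± 0.58 and the phosphate transporter SLC34A2 (NaPi2b) at 4.47 ± 0.26. By contrast MUC16, MSLN (mesothelin), WFDC2 and the cadherin CDH6 were well above background on 0 arrays. Of the kallikreins, a protease family often raised in ovarian tumours, KLK8 (3.30 ± 0.58) and KLK6 (-0.11 ± 0.31) were detected and KLK5, KLK7, KLK10 and KLK11 were not. In total 12 of 30 serous and Mullerian markers were detected, 3 on some arrays and 15 on none, so the detected share lay below that of all symbols.

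Another, more lenient flag of the scanner software asks only whether a spot differs from background. With it 19 of the 30 markers passed on all 4 arrays. That flag passes more genes over the whole array too. The share of all symbols with it is not given here, so this count cannot be read against it. On that flag WT1, MUC16, MSLN, PGR and CDH6 still passed on 0 arrays and WFDC2 on 1, whereas ESR1, EMX2 and KLK10 passed on 3 and the immune checkpoint ligand VTCN1 (B7-H4), KLK7 and KLK11 on all 4. Over all lists used here, 248 of 730 genes were not well above background on any array, and 119 of those also failed the lenient flag on every array.

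**Figure D2:**
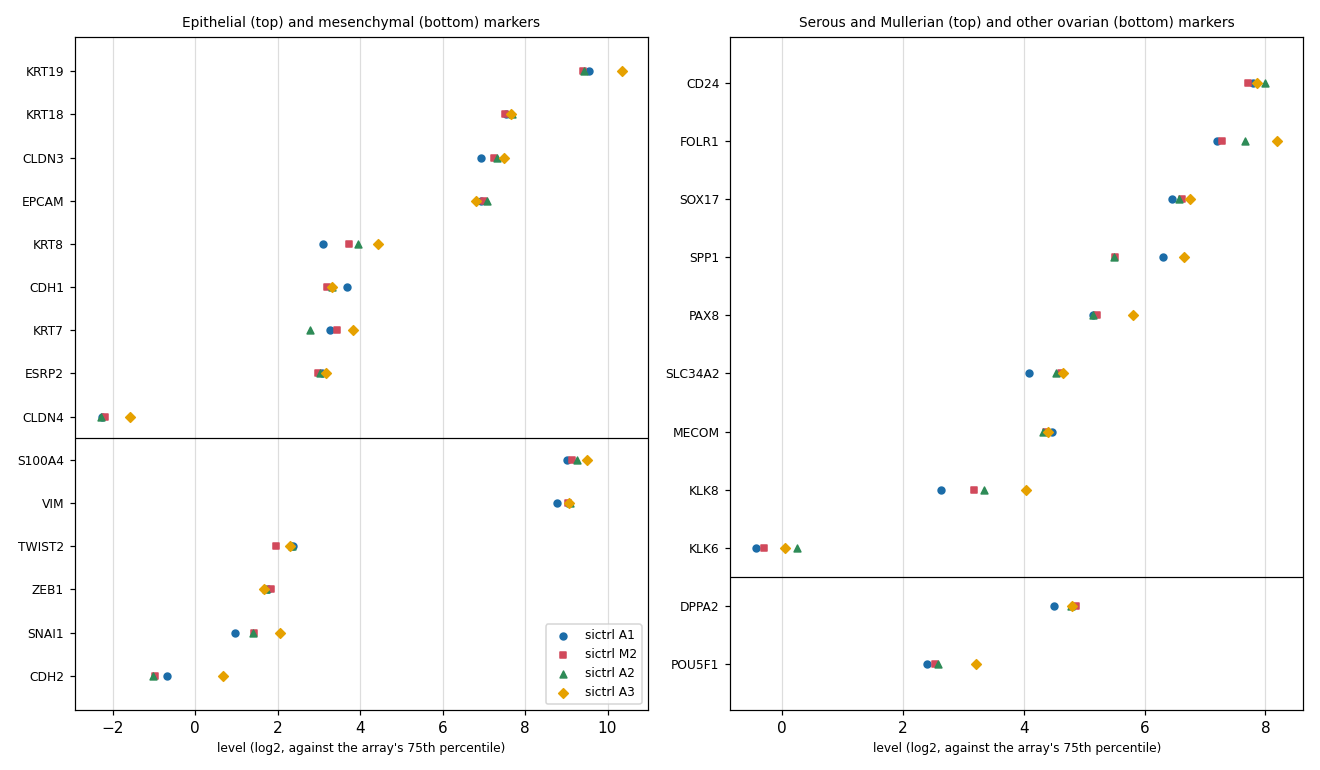
Levels of the detected markers named in the text, with a point per sictrl array, on the log2 scale relative to the array's 75th percentile. Left, epithelial markers above the line and mesenchymal markers below it, with KRT19, S100A4 and VIM at the bright end. Right, serous and Mullerian markers above the line and markers of other ovarian tumour types below it.

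Markers of other ovarian tumour types and of other cell types were mostly not detected. Of 22 genes that mark clear cell, mucinous, sex cord stromal or germ cell tumours, 5 were detected. The intestinal factor CDX2, the granulosa cell factor FOXL2 and alpha-fetoprotein, AFP, were not well above background on any array. The exceptions with a clear signal were the germ cell genes DPPA2 at 4.74 ± 0.16 and POU5F1 (OCT4) at 2.68 ± 0.36 (2.50 ± 0.093 without A3), while LIN28A and DPPA4 were not well above background and NANOG passed on 1 array. POU5F1 has expressed pseudogenes, so its signal is uncertain. Of 54 markers of leukocytes, endothelium, fibroblasts, mesothelium, blood, neurons, liver and muscle, 9 were detected (16.7%) and 36 were not well above background on any array. Among the defining genes that failed on every array were PTPRC (CD45), CD3E, CDH5 (VE-cadherin), COL1A2, COL3A1 and ALB, although PTPRC and CDH5 passed the lenient flag on all 4. The detected ones included the B cell gene CD79A at 3.50 ± 0.19, the mesothelial UPK3B at 4.22 ± 0.076 and the neural genes NEFL at 3.72 ± 0.24 and SNAP25 at 3.19 ± 0.52 (2.93 ± 0.03 without A3). Of the neural list 2 of 6 genes were detected, of the leukocyte list 3 of 11 and of the mesothelial list 1 of 4.

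In a list of lineage transcription factors, which takes in the paired box family of PAX8, 14 of 42 were detected (33.3%), against 59.4% of all coding genes. MITF, the melanocyte and osteoclast regulator that other cells transcribe from alternative promoters, was at 5.85 ± 0.045. GATA6 was at 3.06 ± 0.21, KLF5 at 2.97 ± 0.073 and FOXA2 at 1.74 ± 0.13. The squamous regulator TP63 and the hepatocyte factor HNF4A were not well above background on any array, whereas SOX2, a pluripotency factor, was at 2.90 ± 0.18. HOX genes, which encode position along the body axis, were detected in part from every cluster. The counts were 5 of 11 HOXA genes, 7 of 10 HOXB genes, 4 of 9 HOXC genes and 2 of 9 HOXD genes, with HOXB4 (2.69 ± 0.10), HOXA3 (2.47 ± 0.32) and HOXB9 (2.25 ± 0.30) the brightest probes.

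Among receptor tyrosine kinases, 27 of 58 were detected (46.6%), against 59.4% of all coding genes. MET, the receptor of hepatocyte growth factor, was at 6.70 on A1, 6.60 on M2, 6.30 on A2 and 6.89 on A3. All members of the EGF receptor family were detected, with ERBB2 at 4.78 ± 0.32 (4.62 ± 0.073 without A3), ERBB4 at 3.35 ± 0.17, EGFR at 1.54 ± 0.081 and ERBB3 at -0.07 ± 0.22. The other probe of ERBB4 was not well above background on any array, and only 1 of 3 ERBB3 probes passed on all 4. The FGF receptors were likewise all detected, from FGFR4 at 1.93 ± 0.072 to FGFR2 at 3.63 ± 0.26. The PDGF receptors PDGFRA and PDGFRB and the VEGF receptors FLT1 and KDR, which belong to stroma and endothelium, were not well above background on any array.

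Ligands were detected on all 4 arrays in 15 of 38 cases and on some of them in a further 8. The brightest of this list was VEGFB at 6.27 ± 0.23. EFNA4, an ephrin, was at 2.66 ± 0.13, and VEGFA, the main angiogenic factor, was at 2.93 on A1, 2.94 on M2, 2.89 on A2 and 1.68 on A3. A3 alone was low for VEGFA, and the mean without it was 2.92 ± 0.026, above that of EFNA4 (2.63 ± 0.15). Hepatocyte growth factor itself, HGF, passed on 1 array only, whereas its receptor MET passed on all 4. EGF, AREG and EREG, ligands of EGFR, were not well above background on any array, whereas NRG1, a ligand of ERBB3 and ERBB4, was at 1.22 ± 0.32. Among FGF ligands FGF18 (4.93 ± 0.12) was the only one of 21 detected on all 4 arrays. BMP7, a ligand of the BMP family, was at 6.86 ± 0.40 on its brightest probe and at 2.26 ± 0.30 and 2.24 ± 0.24 on the others.

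Antigens that antibody therapies address were detected in 14 of 24 cases (58.3%), close to the 59.4% of all coding genes. Beside FOLR1, EPCAM, MET, ERBB2 and SLC34A2 given above, the checkpoint protein CD276 (B7-H3) was at 6.91 ± 0.37 (6.73 ± 0.059 without A3) and LY6E at 5.46 ± 0.35. NECTIN4, CLDN6 and the checkpoint ligand CD274 (PD-L1) were not well above background on any array, although NECTIN4 passed the lenient flag on all 4.

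Genes of growth control were nearly all detected. The oncogene list held 17 detected genes of 20. CCNE1, the cyclin that starts S phase and is often amplified in serous carcinoma, was at 6.87 on A1, 6.64 on M2, 6.79 on A2 and 7.17 on A3. MYC was at 5.11 on A1, 4.98 on M2, 5.12 on A2 and 5.05 on A3, so that all arrays lay within 0.13. MYCN and CCND2 were not well above background. Tumour suppressors were detected in 32 of 36 cases. CDKN2A, which encodes p16 and p14ARF, was at 4.98 on A1, 5.28 on M2, 5.24 on A2 and 6.64 on A3. A3 was the highest array and the mean without it was 5.17 ± 0.17, while the dimmer probe was at 2.63 ± 0.25. Its neighbour CDKN2B was not well above background on any array but passed the lenient flag on all 4. RB1 was at 2.99 ± 0.07, and BRCA1 at 2.89 ± 0.13, while BRCA2 passed on 3 of the arrays. ARID1A and DAPK1 were not well above background on any array and passed the lenient flag on all 4, each with a single probe.

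Genes of the cell cycle were detected almost without exception, 36 of 38, at a median level of 4.57. MCM7, a subunit of the replicative helicase, was at 8.66 ± 0.12, TYMS, thymidylate synthase, at 7.02 ± 0.044, CCNB1 at 6.04 ± 0.67 (6.37 ± 0.10 without A3) and MKI67 at 3.62 ± 0.028. CCND2 passed on 0 arrays and CDK6 on 1. Enzymes of glycolysis had bright probes, with a median level of 7.20 over 19 of 30 genes detected. LDHB was at 8.95 ± 0.064, ENO1 at 8.75 ± 0.10 and the lactate exporter SLC16A3 (MCT4) at 7.89 ± 0.34. LDHA, which makes lactate from pyruvate, was at 8.26 ± 0.55 over all arrays and at 8.53 ± 0.036 without A3. The forms of other tissues HK3 and PKLR were not well above background on any array.

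Genes that handle platinum were detected in large part. Of 71 genes with a probe, 60 were detected on all 4 arrays (84.5%) and 11 on none, with no gene in between. Their median level, 1.82, was close to that of all detected RefSeq genes.

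Uptake and export came out as follows. The copper transporters SLC31A1 (CTR1), through which platinum drugs can enter, and SLC31A2 were dim at 0.72 ± 0.14 and 0.43 ± 0.18. LRRC8A and LRRC8D, subunits of the volume-regulated anion channel that admits cisplatin, were at 5.55 ± 0.036 and 2.71 ± 0.15. The organic cation transporter SLC22A2 was well above background on 0 arrays and passed the lenient flag on all 4. Of the exporters, ABCC5 was at 3.87 ± 0.27 and the copper pumps ATP7B at 2.94 ± 0.18 and ATP7A at 0.53 ± 0.30. ABCB1, the multidrug pump P-glycoprotein, ABCG2 and ABCC2, the pump for glutathione conjugates, were not well above background on any array, although ABCB1 and ABCC2 passed the lenient flag on 3 and 4 arrays.

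Thiol systems held the brightest probe of the list, that of GSTP1. Thioredoxin, TXN, was at 7.29 ± 0.21, and HMOX1, heme oxygenase, at 5.18 on A1, 5.35 on M2, 5.63 on A2 and 6.36 on A3. HMOX1 was thus highest on A3, and its mean without that array was 5.39 ± 0.23. Both subunits of glutamate-cysteine ligase, which makes glutathione, were detected, GCLM at 3.80 ± 0.17 and GCLC at 2.06 ± 0.10, as was the cystine importer SLC7A11 at 2.33 ± 0.31. Glutathione reductase, GSR, was at 5.18 on A1, 5.24 on M2, 5.23 on A2 and 4.09 on A3, lower on A3 than elsewhere. The single probe of NFE2L2 (NRF2), the activator of these genes, was not well above background on any array and failed the lenient flag on all, while the NRF2 target NQO1 was dim at -0.26 ± 0.10. Metallothioneins, small proteins that bind metals by their cysteines, were detected in 7 of 11 cases, with MT1A at 4.13 ± 0.15 and MT2A at 3.68 ± 0.26. Their sequences are close to each other, so the split between members is uncertain.

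The repair genes of the platinum list were all detected, although BRCA2, counted above among the tumour suppressors, passed on 3 arrays. All 11 genes of nucleotide excision repair were detected, from ERCC4 (XPF) at -2.09 ± 0.32 to DDB1 at 5.76 ± 0.30 (5.61 ± 0.058 without A3). ERCC1, the partner of ERCC4 in the nuclease that cuts beside the lesion, was at 3.54 on A1, 3.59 on M2, 3.74 on A2 and 4.09 on A3. A3 was the highest array for ERCC1. All 6 genes of translesion synthesis were detected, including POLH, the polymerase that bypasses platinum crosslinks, at 1.38 ± 0.10 and the catalytic subunit REV3L at 1.93 ± 0.049. The same held for the 14 Fanconi and recombination genes, with UBE2T, the conjugating enzyme of the pathway, at 5.80 ± 0.064. MSH6, a mismatch repair gene, was at 5.80 ± 0.072. SLFN11, whose loss is linked to resistance against DNA-damaging drugs, was dim at -1.07 ± 0.28.

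**Figure D3:**
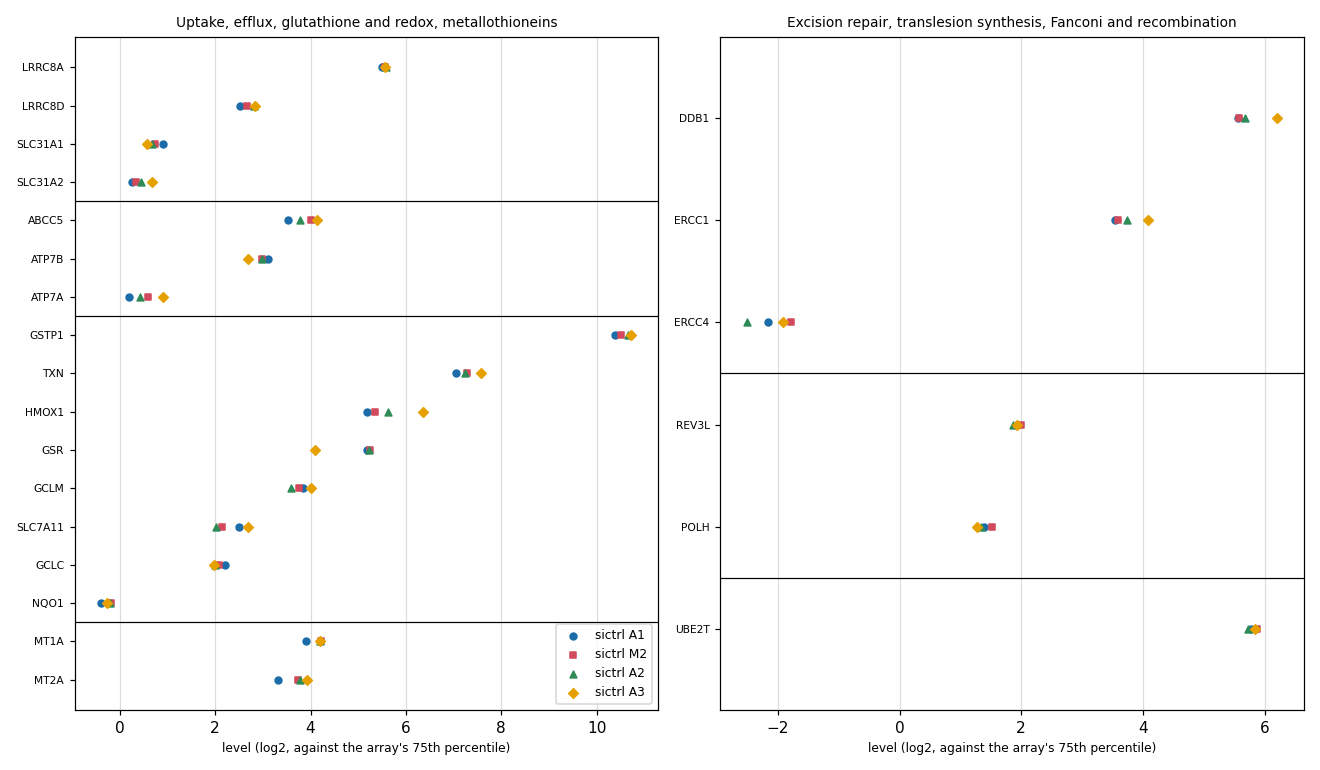
Levels of the detected platinum handling genes named in the text, with a point per sictrl array, on the log2 scale relative to the array's 75th percentile. Left, from top to bottom, uptake, efflux, glutathione and redox, and metallothioneins, where the probe of GSTP1 is the brightest. Right, nucleotide excision repair, translesion synthesis, and Fanconi and recombination genes.

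Most genes of the apoptotic machinery were detected, 34 of 38 (89.5%). The effectors BAX (6.17 ± 0.11) and BAK1 (4.59 ± 0.089) were detected, as were the antiapoptotic BCL2L1 (2.19 ± 0.17), MCL1 (1.71 ± 0.19) and BCL2 (1.44 ± 0.17). Of the BH3-only genes, which antagonise these, BBC3 (PUMA) was at 4.08 ± 0.21 and PMAIP1 (NOXA) at 1.59 ± 0.18, and BMF was not well above background. The inhibitor BIRC5 (survivin) was at 7.13 ± 0.046 and its antagonist DIABLO at 8.44 ± 0.47. APAF1, the scaffold of the apoptosome, passed on 2 of the arrays only. The probes of CASP10 lay far apart. Its brightest probe was at 7.81 ± 0.35 (7.98 ± 0.13 without A3), whereas a further probe was at -2.96 ± 0.97 and passed on 2 arrays, and the remaining ones passed on none.

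Innate and inflammatory genes were largely below detection in these cells, which carried transfected siRNA. Of 37 sensors, interferons and interferon-stimulated genes, 12 were detected (32.4%) and 21 were not well above background on any array. IFNB1, the sensor CGAS and the interferon-stimulated IFIT1 and OAS1 were among the latter. MX1 was at -1.97 ± 0.65 and IFI6 at -1.61 ± 0.41 (-1.79 ± 0.20 without A3), among the dim genes, whereas ISG15 (3.42 ± 0.26), IRF7 (3.37 ± 0.17) and the RNA-activated kinase EIF2AK2 (PKR, 4.15 ± 0.18) were brighter. No interferon gene of the list was detected on any array, nor any of the 9 interferon alpha genes with a probe.

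Cytokines were detected in 7 of 33 cases. IL6 was at 3.89 on A1, 3.67 on M2, 3.70 on A2 and 3.99 on A3 on its brightest probe. Its other probe was not well above background on any array, so the IL6 signal is uncertain. IL18 was at 3.92 ± 0.13. The neutrophil chemokine CXCL8 and the inflammatory cytokine IL1B were not well above background on any array. Genes of antigen presentation were detected in 13 of 19 cases (68.4%, against 59.4% of all coding genes), 3 passed on some arrays and 3 on none. Of class I, HLA-E was at 8.29 ± 0.27 and B2M at 3.27 on A1, 3.29 on M2, 3.28 on A2 and 4.30 on A3 (highest on A3), although class I genes are alike in sequence and their split is uncertain. Of class II, HLA-DRB1 was dim at -1.87 ± 0.15, and the transactivator CIITA and the invariant chain CD74 were not well above background. The components of RNA interference, on which siRNA experiments depend, were all detected (13 of 13). AGO2, the Argonaute that cleaves the target, was at 4.14 on A1, 4.05 on M2, 4.11 on A2 and 4.12 on A3 and DICER1 at 2.36 ± 0.18.

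Among long noncoding RNAs with a RefSeq symbol, 593 were detected, and UCA1, the target of the study, was the third brightest of these after FAM74A4 (9.40 ± 0.15) and LINC01356 (8.82 ± 0.29). UCA1 stood at 8.35 on A1, 8.37 on M2, 8.60 on A2 and 7.48 on A3. A3 was the lowest array, the mean without it was 8.44 ± 0.14, and the other probe of UCA1 was at 5.16 ± 0.10. The following places were held by SNHG29 (7.16 ± 0.19), TTLL1-AS1 (7.06 ± 0.35, without A3 7.22 ± 0.14), MIR4435-2HG (6.91 ± 0.43, without A3 7.12 ± 0.16), SNHG16 (6.86 ± 0.25), SNHG8 (6.80 ± 0.10), EPC1-AS1 (6.76 ± 0.22) and DANCR (6.66 ± 0.094). Hosts of small nucleolar RNAs were thus frequent, and 18 of 22 SNHG genes were detected. The nuclear RNAs MALAT1 and NEAT1 were at 4.16 ± 0.47 and 0.71 ± 0.19 on their brightest probes. PVT1, a neighbour of MYC, was at 2.93 ± 0.032. HOTAIR passed on 2 of the arrays, and H19 on none, although it passed the lenient flag on all 4. For antisense RNAs such as TTLL1-AS1 and EPC1-AS1, and for FAM74A4, which belongs to a multicopy family, the source of the signal is uncertain.

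Cancer-testis genes, which germ cells and some tumours express, were detected rarely, and with the oncofetal genes the count was 7 of 33. Of the oncofetal genes, the RNA-binding proteins IGF2BP3 and IGF2BP2 were at 6.21 on A1, 6.29 on M2, 6.16 on A2 and 7.07 on A3 and at 3.46 ± 0.069, respectively. LIN28B was well above background on 0 arrays. Of 22 MAGE genes with a probe only MAGEA6, at -0.66 ± 0.42 (-0.86 ± 0.20 without A3), was detected on all 4 arrays.

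Of 10 frizzled receptors of Wnt ligands 9 were detected, and of 19 Wnt ligands 7, led by WNT7B (4.57 ± 0.20) and WNT7A (4.50 ± 0.27), which are ligands of the Mullerian duct and other epithelia. Another probe of WNT7B was at -2.05 ± 0.23, and the remaining one passed on 1 array. Among 10 genes listed as readouts of Wnt signalling, 6 were detected on all 4 arrays and 4 on none. The Wnt targets AXIN2 and SP5 were detected but dim at -0.96 ± 0.21 and -2.18 ± 0.31, and LGR5, LEF1, DKK1 and NKD1 were not well above background. NOTCH2 was at 4.33 ± 0.27, whereas HES1 passed on 1 array. The Hedgehog signal transducer SMO was at 4.52 ± 0.077, and the pathway's ligands SHH and IHH and its targets PTCH1 and GLI1 were not well above background on any array, although IHH passed the lenient flag on all 4.

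**Figure D4:**
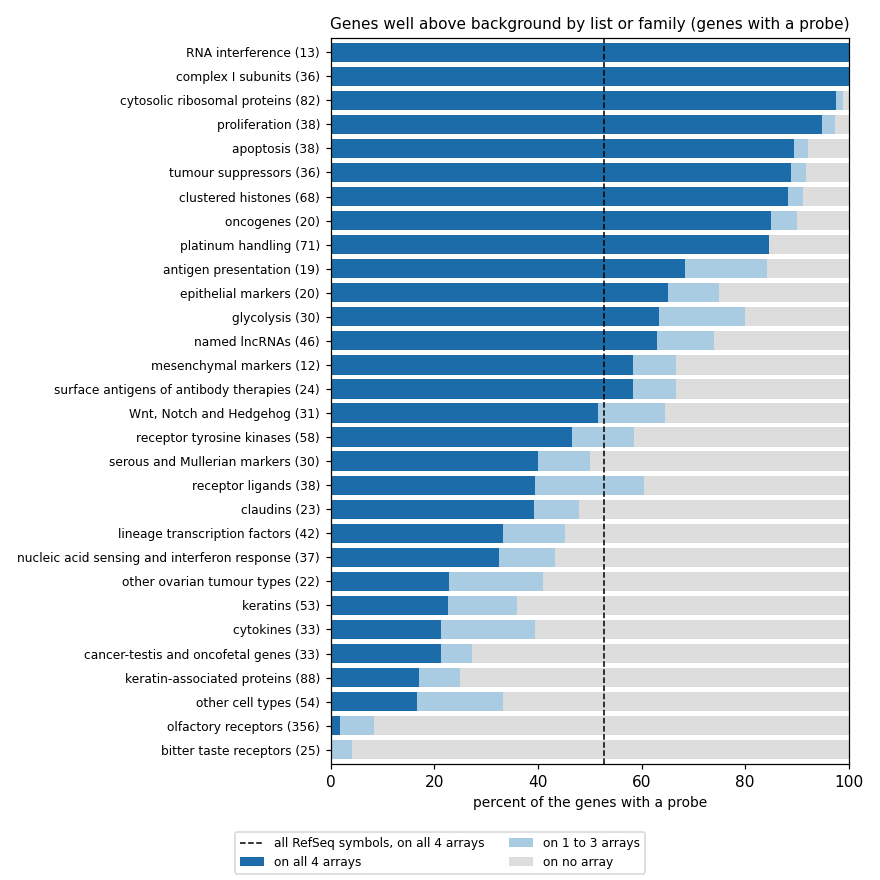
Share of the genes of each list or family that were well above background on all 4 arrays, on 1 to 3 or on none, with the number of genes that have a probe in brackets. The dashed line marks the share of all RefSeq symbols detected on all 4 arrays, 52.7%. Housekeeping machinery lies at the top and sensory receptors at the bottom.

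Gene families ranged from those detected almost wholly to those detected almost nowhere, with many in between. All 36 genes of respiratory complex I were detected, as were 46 of 48 proteasome genes, 34 of 35 tRNA synthetases and 60 of 68 clustered histone genes, whose copies are alike and uncertain one by one. At the other end stood 6 of 356 olfactory receptors and 0 of 25 bitter taste receptors. These receptors belong to sensory epithelia, and the detected share of the olfactory ones was 1.69%. Zinc finger genes named ZNF were detected in 65.7% of cases but at a low median level of 0.66.

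Structural and metabolic families were detected to different degrees. Of 44 collagens 13 were detected, and the bright ones were those of basement membranes, COL18A1 (8.12 ± 0.37, without A3 7.94 ± 0.10) and COL4A2 (6.35 ± 0.53, without A3 6.10 ± 0.23). Laminins, the other basement membrane proteins, were detected in 11 of 12 cases at a low median level of -0.34. The brightest were LAMC1 at 6.50 on A1, 6.54 on M2, 6.48 on A2 and 6.99 on A3 and LAMB1 at 6.59 on A1, 6.61 on M2, 6.58 on A2 and 5.47 on A3. On A3 the former was highest and the latter lowest. Of 23 cadherins only 5 were detected, among them CDH16 (Ksp-cadherin, 5.50 ± 0.17), a cadherin of kidney and Mullerian epithelia. Integrin subunits were detected in 13 of 27 cases (48.1%, against 59.4% of all coding genes), with ITGB3 at 5.59 ± 0.091 and ITGAV at 3.76 ± 0.14. Cytochromes P450 were mostly undetected (11 of 53), but CYP2W1, a form found in fetal gut and in tumours, was at 9.72 on A1, 9.87 on M2, 9.70 on A2 and 9.46 on A3, and CYP1B1, which hydroxylates oestrogens, at 5.50 ± 0.18. The conjugating enzymes UGT2B10 (5.62 ± 0.078) and UGT2B7 (4.57 ± 0.19), which are close in sequence, were detected. DEFB1 (8.18 ± 0.14) was the only one of 31 beta-defensin genes detected, and it is the one that epithelia transcribe constitutively.

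Detected shares differed between chromosomes and neighbourhoods. The share of coding genes detected was lowest on chromosome X (48.8% of 726), 4 (50.4%) and 11 (51.9%) and highest on 16 (66.9% of 750) and 22 (66.8%), with the Y chromosome left out. In the order of the RefSeq annotation, and counting only coding genes with a probe, the longest stretch without a detected gene held 33 genes on chromosome 11, from OR5W2 to APLNR, nearly all of them olfactory receptors. The next, on chromosome 4, held 22 genes from UGT2B4 to JCHAIN, with the milk caseins CSN2 and CSN3 and the salivary proteins STATH and HTN1. Others were the MS4A genes of immune cells on chromosome 11 (17 genes from CBLIF to MS4A10), the hair keratin-associated genes on chromosome 21 (14 genes from GRIK1 to KRTAP19-1) and the clade B serpins on chromosome 18 (13 genes from SERPINB5 to CDH19). The longest stretches with every gene detected were 33 genes on chromosome 9, from BBLN to NTMT1, and 31 genes on chromosome 7, from FAM20C to GNA12, a stretch that includes CYP2W1.

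Promoters of detected and undetected genes differed in sequence content. In the 250 bases before the annotated start, the ratio of observed to expected CG dinucleotides, which is high in CpG islands, had a median of 0.83 for 8922 coding genes detected on all 4 arrays and 0.387 for 4583 genes detected on none. Over all 15843 coding promoters of the RefSeq set it was 0.737. The ratio exceeded 0.6 in 81.8% of the promoters of detected genes and in 36.0% of those of undetected genes, or 38.1% when olfactory receptors, whose models often begin near the start codon, were left out. The letters TATAAA, searched on the transcribed strand between 40 and 20 bases before the start, occurred in 1.82% of the former, 7.00% of the latter and 3.58% of all coding promoters. Within the top 10% of detected coding genes by level the share with TATAAA was 5.11%. With genes grouped by this ratio, the detected share went from 19.4% of 1891 genes with a ratio under 0.2 to 83.1% of 1737 genes with a ratio of 1 or more.

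**Figure D5:**
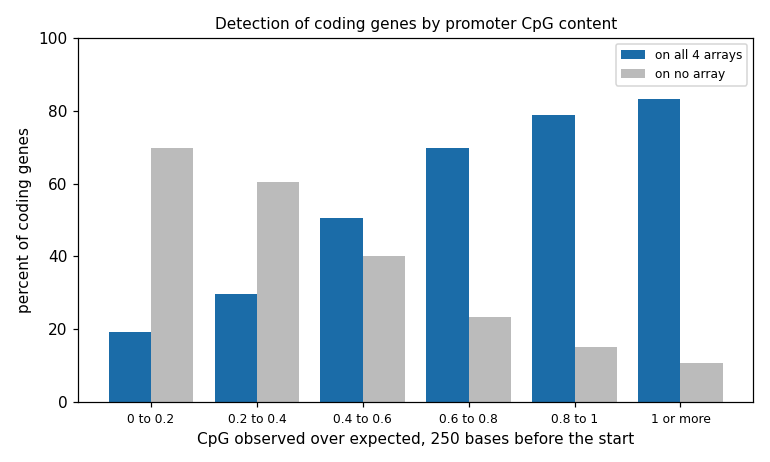
Percent of coding genes detected on all 4 arrays and on none, by the ratio of observed to expected CG dinucleotides in the 250 bases before the annotated start. The detected share climbs from 19.4% in the lowest class to 83.1% in the highest.

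The contrast can be read in single promoters, of which the last 120 bases before the start are given here 5′ to 3′ on the transcribed strand (RefSeq, GRCh38.p14), with CG dinucleotides and TATAAA in capitals. RPS21 and GSTP1 are shown as bright genes with many CG, GDF15 as a bright gene with TATAAA, and CSN2 and STATH as undetected neighbours from the undetected stretch of chromosome 4.
RPS21: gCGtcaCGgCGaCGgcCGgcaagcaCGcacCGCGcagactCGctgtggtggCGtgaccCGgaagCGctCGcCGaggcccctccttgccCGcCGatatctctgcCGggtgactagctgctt
GSTP1: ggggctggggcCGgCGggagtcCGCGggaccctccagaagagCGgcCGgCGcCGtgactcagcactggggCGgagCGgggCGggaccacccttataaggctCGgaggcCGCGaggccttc
GDF15: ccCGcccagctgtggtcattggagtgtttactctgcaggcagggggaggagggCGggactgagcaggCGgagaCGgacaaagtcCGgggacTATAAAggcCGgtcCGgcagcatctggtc
CSN2: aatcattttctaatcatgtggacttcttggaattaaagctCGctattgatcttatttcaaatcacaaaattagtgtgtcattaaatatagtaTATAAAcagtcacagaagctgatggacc
STATH: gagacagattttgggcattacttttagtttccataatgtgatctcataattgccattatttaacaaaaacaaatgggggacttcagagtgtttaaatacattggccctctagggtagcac

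RPS21 (chr20:62386983-62387102) holds 17 CG dinucleotides in this stretch and GSTP1 (chr11:67583692-67583811) 14. GDF15 (chr19:18386038-18386157) holds 7 and a TATAAA. CSN2 (chr4:69965729-69965848, minus strand) holds 1 and a TATAAA, and STATH (chr4:69995846-69995965) holds 0. The relation is one of shares and not of single genes. WT1 and WFDC2 have ratios of 0.616 and 0.687, and neither was detected, whereas VIM, at 0.613, was bright.

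Levels were steady between experiments for most genes. The SD over the 4 arrays had a median of 0.249 in the dimmest 25% of detected genes and transcripts and of 0.157 in the brightest. The steadiest genes were TRIP13, an ATPase of the spindle checkpoint, at 5.08 on A1, 5.07 on M2, 5.08 on A2 and 5.08 on A3, RFK at 2.47 ± 0.0063 and AKR1A1 at 3.69 ± 0.0065, followed by OFD1, AGFG1, FADD, KANSL1, PHC2, CCT3 and EIF4H, whose SDs were between 0.0079 and 0.014.

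The most variable genes were mostly those low on A3. NPIPB5, a member of a duplicated gene family on chromosome 16, was at 6.05 on A1, 6.39 on M2, 5.95 on A2 and 2.07 on A3, and HSCB, a cochaperone of iron-sulfur cluster assembly, at 7.35 on A1, 7.87 on M2, 7.51 on A2 and 3.88 on A3. Both were low on A3 alone. CASC15 (-1.35 on A3 against a mean of 1.95 ± 0.14 on the rest), RPL23P8, OR2H1, MMP25-AS1, GJA1, RPS12 and CTRB2 showed the same order. The exception among the 10 was MMP1, an interstitial collagenase, at 0.59 on A1, -1.84 on M2, -1.80 on A2 and 0.01 on A3, with A1 and A3 above M2 and A2. Over all detected genes and transcripts, A3 lay more than 1 below the mean of the others for 446 and more than 1 above it for 235, against at most 78 and 47 for any other array.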

How the data were processed

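RNA of the 4 sictrl samples was measured on 1-color Agilent 8x60k arrays. The authors deposited the Feature Extraction 10.7.3.1 output, which gives each spot's intensity on a linear scale. Background had been subtracted and a surface trend removed, without normalization between arrays. The processed intensity was put on the log2 scale, and the log2 of the array's 75th percentile over non-control spots was subtracted. Control spots and outlier spots did not enter, and repeated spots of a probe were averaged. Each gene took its brightest probe well above background on all 4 arrays. Probes not well above background on any array have no measured level. Of 58201 probes, 31104 matched a RefSeq symbol (GRCh38.p14) by accession, and the others kept the design's name. The steps ran in Python 3.11.15 with pandas 2.3.3, and normexp, an alternative, in limma 3.58.1, and were tested on simulated data. Signal over background and the number of arrays limit the precision, and no test was run on the 1 group. The groups come from the sample titles, and the study's methods describe independent experiments.

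The text names the 25 brightest genes in part, the 10 brightest long noncoding RNAs, the 10 most and 10 least variable genes, and members of 23 lists and 50 families with 730 of 750 listed symbols on the array. The members and lists were chosen with earlier results of these data known. A few genes named for their place in a stretch of the genome were chosen after their values were seen. Y-linked genes and XIST were left out. The alternatives were another detection flag, other numbers of arrays required, the negative control spots as limit, outlier spots kept, RefSeq genes only, other scalings, normexp on the median signals with an offset of 50, the mean of a gene's probes, and each array left out. The arrays of UCA1 knockdown were not used here, and the values of some list members are not reported here.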

Additional observations from a re-analysis of the deposited data

Results flagged for a closer look

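In a group of 4 arrays, a value was singled out when the gap between the most extreme array and its nearest neighbour was too large a part of the whole range by Dixon's critical value for 4 values, which chance alone passes in about 1 group in 20. Of 194 values described here, 35 did so (18.0%), and over all 15153 detected genes and transcripts 1720 did (11.4%), 1338 of them on A3. The surface trend removed from A3 was itself past the limit (gap over range 0.944). The described genes include the 10 most variable ones, chosen for their spread and mostly low on A3, so their share cannot be read against that of all genes. Whether the surface trend accounts for the single genes was not tested.

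A3 was the low array for 17 of the described genes. The gaps over range were BCL2L1 0.937, BIRC5 0.862, CASC15 0.924, CCNB1 0.855, CTRB2 0.978, GJA1 0.882, GSR 0.95 and HSCB 0.869. For the rest they were LAMB1 0.979, LDHA 0.939, MMP25-AS1 0.873, NPIPB5 0.899, OR2H1 0.92, RPL23P8 0.883, RPS12 0.923, SNHG29 0.937 and VEGFA 0.963. A3 was the high array for 9 genes, with gaps over range of B2M 0.981, CD276 0.856, CLDN4 0.851, DDB1 0.83, IGF2BP3 0.86, KRT19 0.862, LAMC1 0.877, PAX8 0.892 and SNAP25 0.951. LAMB1 and LAMC1, partners in the same laminin trimers, thus stood apart on A3 in opposite directions. Other arrays were the low one for GATA6 (A1, 0.933), IL18 (A1, 0.841), MT1A (A1, 0.951), SP5 (A1, 0.835), TWIST2 (M2, 0.843) and VIM (A1, 0.84). They were the high one for NEAT1 (M2, 0.881) and SNHG8 (A2, 0.913).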

How the results depend on the processing

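The counts of all detected genes and of all detected list members together stayed within 1.5 times their value under every alternative run, from 11817 to 19683 and from 410 to 488. The count of undetected genes and transcripts did not. It was 28349 as described, 13642 with the lenient flag, and 8777 with RefSeq symbols only, where fewer genes are counted. Of the single lists, 5 moved by more than 1.5 times. With the lenient flag the count of detected genes went from 12 to 19 for serous and Mullerian markers. With either that flag or 1 array in place of 4 it went from 5 to 9 for other ovarian tumour types and from 15 to 23 for ligands. Markers of other cell types went from 9 to 17 with the lenient flag and 18 with 1 array, and cytokines from 7 to 14 and 13. Of the 25 brightest genes, 15 remained when a gene took the mean of its detected probes, and at least 21 under the other alternatives, the lowest of these without A3. The median SD between arrays was 0.182 after quantile normalization, and with 1 array left out it ran from 0.115 without A3 to 0.199 without A2. Median scaling raised every level by 4.26, which moves the zero and no order. With the mean of the probes, 52 of 189 named levels moved by more than the SD between arrays, at most by -5.40. Normexp moved 168 of them by more than that SD, with a median shift of -0.56 and shifts between -0.96 and 1.22. No paired analysis was possible because 1 group was described and no result comes from a test. Dim genes are limited by background, and how well the probes of undetected genes bind was not tested.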

Other observations

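Several probes of genes known from other tissues were bright on all 4 arrays. The hair follicle keratin KRT25 was at 8.44 on A1, 8.30 on M2, 8.35 on A2 and 8.18 on A3, and LCE1D, a gene of the cornified envelope of skin, at 8.49 on A1, 8.70 on M2, 8.50 on A2 and 9.06 on A3. Of all detected genes and transcripts, 97.8% and 98.2% were dimmer, and each of the 2 genes has a single probe, so no other probe can be set beside it. FOXI2, a forkhead factor, was at 6.52 ± 0.52 (6.26 ± 0.18 without A3) and the matrix metalloproteinase MMP24 at 6.09 ± 0.36. The creatine transporter SLC16A12 was at 8.55 ± 0.27 on 1 of its 3 probes, and the other 2 probes passed on 0 arrays. These genes were chosen after their values were seen.

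Probes of 1 gene often parted in this way. Of 4429 detected genes with several probes, 1259 (28.4%) had at least 1 probe that was not well above background on any array. Among the genes named above, KLK6, KRT8, POLH, MAGEA6, OR2H1, SNHG29 and EPC1-AS1 also had such a probe. Among the 100 brightest features of the array, 28 had no RefSeq symbol here and were not described further.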
